A study of Mus musculus with 8 samples.

Results

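The Cyp2a, Cyp2d and Cyp2f genes encode cytochrome P450 enzymes, and 8 of them were followed here in mouse liver: Cyp2a4, Cyp2a5, Cyp2a12, Cyp2d9, Cyp2d10, Cyp2d22, Cyp2d26 and Cyp2f2. Every non-control probe that the array design names for one of these genes was taken. The genes are 8 of 27962 names in the design and had 14 of its 41174 probes, and all 14 were detected on all 8 arrays, with none saturated. Cyp2a12, Cyp2d26 and Cyp2f2 had 1 probe each and the other genes had 2 or 3.

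Liver RNA came from 4 male C57BL/6 mice (C57BL/6J in the study's methods) administered standard chow (STD) and 4 administered a high-fat/high-cholesterol diet, called atherogenic (ATH) in the sample titles, for 4 weeks. The mice were wild type and, by the labels, 14 to 17 weeks old when the diets began. The methods give a wider range of ages. The atherogenic diet differed from chow in fat, in cholesterol and in added cholic acid, so an effect of any single component cannot be told apart. Each mouse gave 1 sample, labeled with Cy3 and hybridized alone to an Agilent whole-genome array.

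A P450 enzyme holds a heme group, takes electrons from a reductase in the membrane of the endoplasmic reticulum and inserts an oxygen atom into its substrate. Liver carries more P450 than other organs, and the CYP2 family there handles steroids, drugs and inhaled or ingested chemicals. Several mouse CYP2 genes differ between male and female liver under the control of growth hormone, and many differ along the axis from the portal to the central vein. Cyp2a5 is the coumarin 7-hydroxylase, Cyp2a4 is a steroid 15-alpha-hydroxylase that is higher in female liver, and Cyp2d9 is a steroid 16-alpha-hydroxylase that is higher in male liver. Cyp2d22 is often compared with human CYP2D6, and Cyp2f2 oxidizes naphthalene in club cells of the lung and is also made by periportal hepatocytes.

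In the RefSeq gene table for assembly GRCm38.p6, the Cyp2a and Cyp2f genes lie in 1 cluster and the Cyp2d genes in another. Cyp2a4 spans chr7:26307192-26315088, Cyp2a5 spans chr7:26835339-26843264, Cyp2a12 spans chr7:27029090-27036818 and Cyp2f2 spans chr7:27119955-27133660. Cyp2d22 spans chr15:82370527-82380260, Cyp2d10 spans chr15:82402845-82407253, Cyp2d9 spans chr15:82452377-82456827 and Cyp2d26 spans chr15:82790107-82794452. The probes themselves carry positions of an older assembly, mm7, in which the probes named for Cyp2a4 and those named for Cyp2a5 were placed at a single locus between chr7:23210886 and chr7:23212279.

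Cyp2a4 and Cyp2a5 are near-identical copies, and the probe sequences show how far the array can separate them. The brightest Cyp2a4 probe and the brightest Cyp2a5 probe overlap by 38 bases, of which 35 are the same. The stretch that holds the difference is printed 5′ to 3′ from the array design, with the letters that differ in capitals.
Cyp2a4 probe A_51_P377154: aggacacTTCgtagacttgcagaggatatt
Cyp2a5 probe A_52_P246252: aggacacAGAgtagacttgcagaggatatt
The 3 differing letters are adjacent. For the second Cyp2a5 probe and for both Cyp2a4 probes the files list transcripts of both genes, and for A_52_P246252 they list Cyp2a5 and 1 transcript that matched no gene in the table. The second Cyp2a5 probe also shares 20 of its bases, without a difference, with the start of the Cyp2a4 probe above. The values of Cyp2a4 and Cyp2a5 below are therefore not independent, and which copy supplied the RNA was not tested. The same holds in part for Cyp2d9, whose probes overlap each other by 27 bases and are also listed for transcripts of Cyp2d22 and, for the brighter one, Cyp2d34.

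The bases before the gene starts were also compared. RefSeq promoter sequences of assembly GRCm38.p6 were matched by symbol for 7 of the 8 genes, all except Cyp2d22. For Cyp2d10 and Cyp2d26 the start used in that table lies inside the gene span given above, by 59 and 207 bases, so positions before the start are those of the promoter table. Over the 250 bases before their starts, Cyp2a4 and Cyp2a5 aligned over 249 bases with 4 differences, and Cyp2d9 and Cyp2d10 aligned over 246 bases with 37 differences. The last 120 bases before the start are printed 5′ to 3′ on each gene's own strand for 4 genes that these comparisons turn on. Capitals mark matches to the letters TATAAA, TTGCNNAA or CAAAGNNCA on either strand. The first is the TATA box core, the second resembles sites of C/EBP factors and the third resembles sites of HNF4.
Cyp2a4 chr7:26307072-26307191, plus strand: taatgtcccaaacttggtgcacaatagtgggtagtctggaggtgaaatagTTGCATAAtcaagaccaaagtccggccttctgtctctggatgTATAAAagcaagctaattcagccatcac
Cyp2a5 chr7:26835219-26835338, plus strand: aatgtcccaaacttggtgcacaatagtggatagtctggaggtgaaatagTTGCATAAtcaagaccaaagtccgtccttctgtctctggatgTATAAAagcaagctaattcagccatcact
Cyp2a12 chr7:27028970-27029089, plus strand: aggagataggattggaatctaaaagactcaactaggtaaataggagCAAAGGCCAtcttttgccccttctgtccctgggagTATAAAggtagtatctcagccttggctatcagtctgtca
Cyp2d9 chr15:82452257-82452376, plus strand: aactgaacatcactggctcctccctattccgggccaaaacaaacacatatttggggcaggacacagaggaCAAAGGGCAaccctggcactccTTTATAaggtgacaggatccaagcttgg

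The letters TATAAA were found in the 250 bases of 6 of the 7 promoters, all but that of Cyp2f2, and in 12.4% of all 32851 promoters in the table. The letters TTGCNNAA were found before Cyp2a4 and Cyp2a5, starting 70 and 71 bases before the start, and in 9.56% of all promoters. The letters CAAAGNNCA were found before Cyp2a12, Cyp2d9, Cyp2d10 and Cyp2d26, between 74 and 42 bases before the start, and in 5.49% of all promoters. The STAT-type letters TTCNNNGAA were found in 0 of the 7 and in 7.02% of all promoters, and the nuclear receptor core AGGTCA was found before Cyp2f2 and in 14.0% of all promoters. These matches describe the letters in this window and show no binding.

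**Figure D1:**
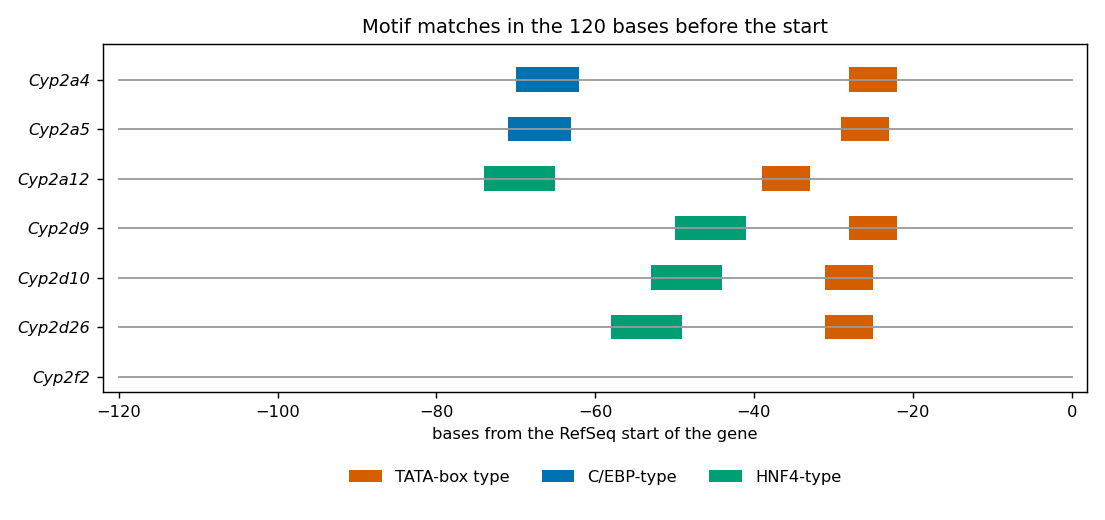
Map of motif matches in the 120 bases before the RefSeq start of 7 genes, with the distance from the start used in the promoter table in bases on the horizontal axis and 1 line per gene. Cyp2a4 and Cyp2a5 carry the C/EBP-type match near 70 bases before the start, whereas Cyp2a12, Cyp2d9, Cyp2d10 and Cyp2d26 carry the HNF4-type match.

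Levels below are log2 signals minus each array's 75th percentile, called scaled log2 signal. A level can be compared between arrays for the same probe but not between probes. The 75th percentile was itself higher in the ATH group, by 0.45 on the log2 scale, and the median change of all 31056 detected probes was -0.15. Over the 8 arrays, 72.3% to 77.8% of spots were well above background, and precision is limited by how many arrays there were. All STD arrays lay on 1 slide and all ATH arrays on another, with a scan each, so slide, scan and diet cannot be told apart. In whole liver, fewer hepatocytes and less RNA per hepatocyte cannot be told apart either.

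Mice administered the atherogenic diet had lower signal for Cyp2a4 and Cyp2a5 than mice administered chow, by 2.11-fold to 2.24-fold over the 4 probes. For the brightest Cyp2a5 probe, the scaled log2 signal was 8.53, 8.24, 8.01 and 8.06 in the STD group and 7.44, 7.18, 6.73 and 7.17 in the ATH group. All ATH livers lay below all STD livers. The change was -1.08 on the log2 scale (SE 0.18, limma adjusted p = 0.0181). For the brightest Cyp2a4 probe, the STD livers gave 7.23, 6.78, 6.51 and 6.59 and the ATH livers gave 5.96, 5.65, 5.18 and 5.72. Here too the diets did not overlap, STD 1 was the highest liver and ATH 3 the lowest. The change was -1.15 (SE 0.21, adjusted p = 0.0221). The second Cyp2a5 probe gave -1.13 (adjusted p = 0.020) and the second Cyp2a4 probe gave -1.16 (adjusted p = 0.0222). The direction held when the scaling was changed, at -0.63 for Cyp2a5 and -0.70 for Cyp2a4 with no scaling between arrays, where the median of all detected probes was 0.30. With spike-in scaling both Cyp2a4 probes lost the call at 5% (adjusted p = 0.0508 and 0.0565), and with no scaling the second one did (adjusted p = 0.0529). Of all detected probes, 1.96% had a change at or below that of the brightest Cyp2a5 probe.

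The third Cyp2a gene, Cyp2a12, a steroid hydroxylase of the same cluster, gave a different picture. Its scaled log2 signal was 6.13, 6.33, 6.10 and 6.06 in the STD group and 6.15, 6.27, 5.62 and 5.67 in the ATH group. ATH 1 and ATH 2 lay within the range of the STD livers, and ATH 3 and ATH 4 lay below it. The log2 fold change was -0.23 (95% interval -0.63 to 0.17, adjusted p = 0.411 by limma). The sign was not settled, since the value was 0.22 with no scaling, 0.080 with spike-in scaling and 0.080 with quantile normalization.

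The Cyp2d genes were measured with 8 probes, of which 7 were lower in the ATH group and 2 passed 5%. Cyp2d9 gave 8.58, 8.57, 8.38 and 8.32 in the STD group and 8.20, 8.13, 7.72 and 7.69 in the ATH group at its brighter probe. The diets did not overlap, and the log2 fold change was -0.52 (95% interval -0.88 to -0.17, adjusted p = 0.0723), which did not pass 5%. Its other probe gave -0.53 (adjusted p = 0.0679).

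Cyp2d10 had a probe that passed and a probe that did not. The brighter one gave 8.23, 8.20, 8.12 and 7.80 in the STD group and 7.98, 7.81, 7.33 and 7.25 in the ATH group. The diets overlapped there, since ATH 1 and ATH 2 reached the lowest STD liver, and the log2 fold change was -0.49 (95% interval -0.93 to -0.052, adjusted p = 0.138). The dimmer probe gave 5.45, 5.44, 5.34 and 5.34 in the STD group and 4.81, 4.81, 4.59 and 4.47 in the ATH group. It separated the diets, at a change of -0.72 (SE 0.12, adjusted p = 0.0184). The changes of the 2 probes differed by 0.23, which did not pass the two-sided exact permutation test (p = 0.20, adjusted p = 0.467 over 7 pairs of probes of the same gene).

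Cyp2d22 fell at its brightest probe, with values of 5.49, 5.14, 5.17 and 5.20 in the STD group and 4.91, 4.67, 4.55 and 4.47 in the ATH group. The change was -0.60 (SE 0.14, adjusted p = 0.0416). This call was lost with no scaling (-0.15, adjusted p = 0.430), with spike-in scaling (-0.29, adjusted p = 0.242), with quantile normalization (-0.33, adjusted p = 0.160) and with the mean of its 3 probes (-0.32, adjusted p = 0.110), and under 14 of 20 alternatives in all. Its other probes, which the files tie to no RefSeq transcript, did not pass. The first of them gave -0.54 (adjusted p = 0.0693). The other gave 0.18 (95% interval -0.17 to 0.54, adjusted p = 0.461), with 0.89, 1.38, 0.77 and 0.84 in the STD group and 1.07, 1.26, 1.15 and 1.13 in the ATH group, and was the only one of the 14 probes that was higher. With no scaling it rose by 0.63 (adjusted p = 0.0326). Its change differed from that of the brightest Cyp2d22 probe by 0.79, which did not pass the exact permutation test (p = 0.0571, adjusted p = 0.20 over the 7 pairs).

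Cyp2d26 changed least among the Cyp2d genes, with 8.88, 8.86, 8.68 and 8.80 in the STD group and 8.73, 8.62, 8.28 and 8.20 in the ATH group. ATH 1 lay within the STD range. The log2 fold change was -0.35 (95% interval -0.69 to -0.0093, adjusted p = 0.166), and it was 0.098 with no scaling and 0.082 with quantile normalization.

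Cyp2f2 fell by 0.59 on the log2 scale, or 1.5-fold (SE 0.13, adjusted p = 0.0345 by limma). Its STD livers lay close together, at 8.46, 8.54, 8.55 and 8.56, and the ATH livers lay below them, at 8.18, 8.02, 7.79 and 7.78. With arrays of the same number treated as a block the adjusted p was 0.0615, and with no scaling the log2 fold change was -0.14. The call was also lost with spike-in scaling (-0.27, adjusted p = 0.178) and quantile normalization (-0.15, adjusted p = 0.378), and under 14 of 20 alternatives in all.

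**Figure D2:**
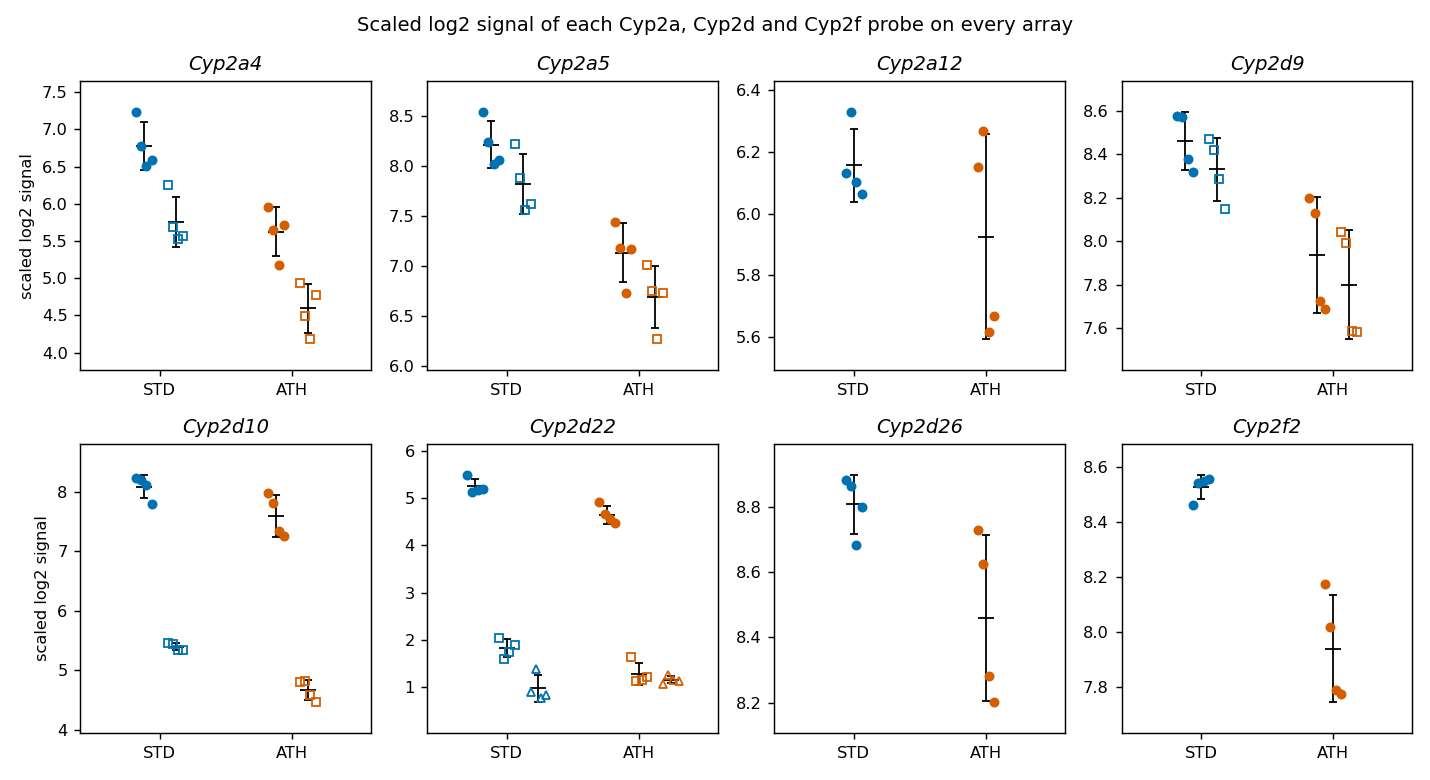
Scaled log2 signal of all 14 probes on each of the 4 STD and 4 ATH arrays, 1 panel per gene with its own vertical range. Filled circles are the brightest probe of a gene, open symbols are its other probes, and black bars give the mean ± SD (n = 4). The ATH livers lie below all STD livers for Cyp2a4, Cyp2a5, Cyp2d9 and Cyp2f2, and overlap them for Cyp2a12 and Cyp2d26.

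Over all 14 probes, 13 were lower in the ATH group and 7 of them (50%) passed a false discovery rate of 5%, beside 4.94% of all detected probes called lower. Read at the brightest probe, 4 of the 8 genes passed: Cyp2a4, Cyp2a5, Cyp2d22 and Cyp2f2. The ATH livers lay below all STD livers for 9 probes (64.3%), beside 13.8% of all detected probes. At a false discovery rate of 1%, the level the study used, 0 of the 14 passed by limma, beside 0.528% of all detected probes in either direction. At an unadjusted p under 0.05, 12 of the 14 passed as lower by limma, beside 19.3% of all detected probes. A test with unequal variances, run here on the same arrays, called 0 of the 14 lower at 5%. Of all 31056 detected probes it called 16 lower at 5%, and 0 in either direction at 1%. The paper lists changed genes from a test of this kind, and this run did not reproduce that list. The probes of Cyp2a4, Cyp2a5, Cyp2d9 and Cyp2d22 share sequence or target, so they are fewer than 14 independent measurements. The median log2 fold change over the 8 genes was -0.55.

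Many of the calls at 5% did not hold when certain single arrays were left out, and why was not tested. Leaving out STD 1 or ATH 4 left 0 of the 14 probes called, and leaving out STD 3, STD 4 or ATH 3 left 2, 2 and 3. In those fits the share of all detected probes called lower was between 0.792% and 1.36%. Without any single array the log2 fold change stayed between -1.18 and -0.95 for Cyp2a5, between -1.26 and -0.997 for Cyp2a4 and between -0.66 and -0.53 for Cyp2f2. Among genes that were not called, it ran from -0.35 to -0.13 for Cyp2a12, from -0.44 to -0.26 for Cyp2d26 and from -0.62 to -0.38 for Cyp2d10.

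**Figure D3:**
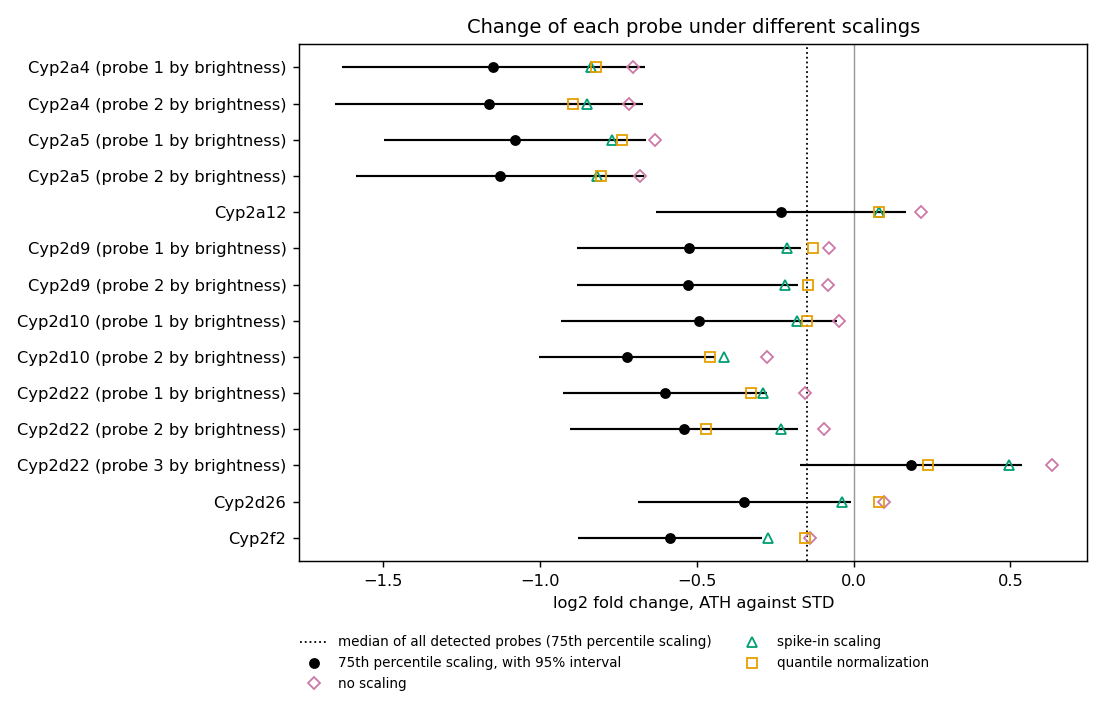
Log2 fold change (ATH against STD) of the 14 probes, with the 95% interval for the 75th percentile scaling in black and the values under other scalings as open symbols. The 4 probes of Cyp2a4 and Cyp2a5 stay below -0.6 under every scaling shown, and Cyp2a12 and Cyp2d26 change sign.

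The genes were next compared with each other within each array, which cancels any scaling of the array. For each pair of genes the difference between their log2 signals was taken on every array and compared between the diets. The question was whether the genes changed by different amounts. With 4 livers against 4 the smallest p that an exact permutation test over 70 assignments can give is 0.0286, and 28 pairs were compared.

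The log2 fold changes of Cyp2a4 and Cyp2a5 differed by -0.068, which did not pass the two-sided exact permutation test (p = 0.20). Against the other 6 genes they fell further in every one of the 12 pairs, by 0.48 to 0.92 on the log2 scale, and the diets did not overlap in 10 of these. The direction in the 12 pairs follows from the log2 fold changes given above. The pairs with Cyp2a4 and those with Cyp2a5 are not independent, since the probes of these genes are not. The largest difference was between Cyp2a4 and Cyp2a12, which lie in the same cluster on chromosome 7 with Cyp2a5 between them. The log2 signal of Cyp2a4 exceeded that of Cyp2a12 by 0.62 ± 0.32 in the STD group and lay below it, at -0.30 ± 0.29, in the ATH group (mean ± SD, n = 4), where only the shift and not the level can be read across probes. Cyp2d9, Cyp2d10, Cyp2d22 and Cyp2f2 differed from each other by no more than 0.11 in any pair, and the diets overlapped in all 6 of these pairs.

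In 15 of the 28 pairs the diets did not overlap, which gives the smallest possible p of 0.0286. After adjustment over the 28 pairs that value became 0.0533, so 0 of the 28 pairs passed 0.05 by this exact permutation test. Among the 15 were Cyp2a12 against Cyp2d9 and Cyp2f2, in which Cyp2a12 changed less, by 0.29 and 0.35. Also among them were Cyp2d26 against Cyp2d9, Cyp2d22 and Cyp2f2, in which Cyp2d26 fell less, by 0.18, 0.25 and 0.24. The 28 pairs share genes, so the 15 are not independent of each other. How often the diets separate over pairs of other detected genes was not computed. Whether 15 of 28 is unusual was therefore not tested, and the same holds for the pairs with Cyp2a4 or Cyp2a5.

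**Figure D4:**
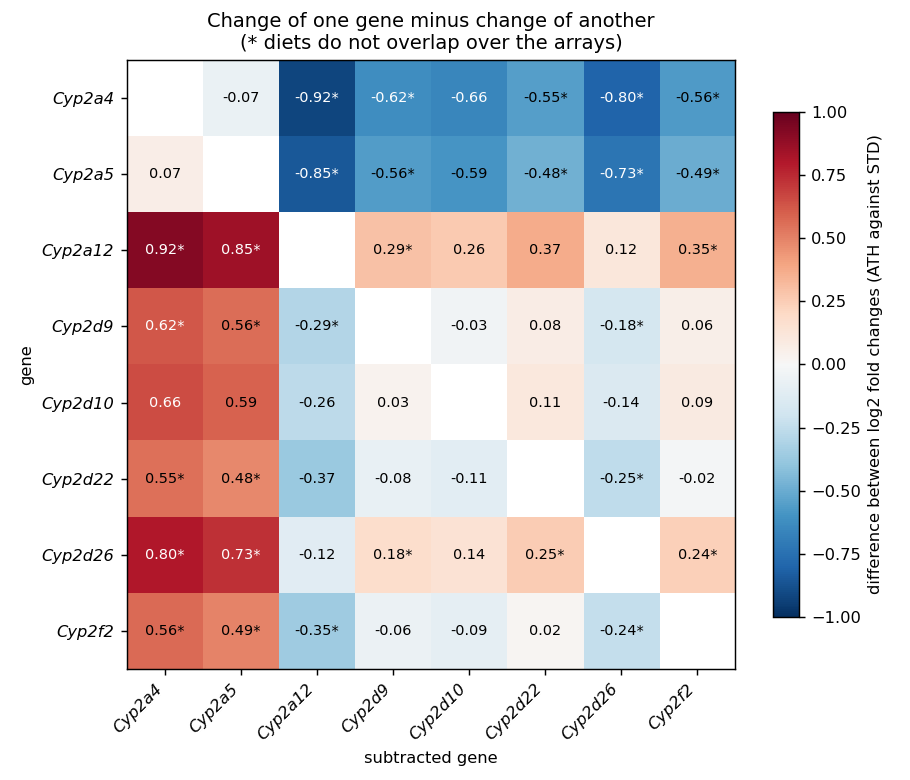
Difference between the log2 fold changes (ATH against STD) of each pair of genes, the gene of the row minus the gene of the column, with an asterisk where the diets do not overlap over the 8 arrays. The rows of Cyp2a4 and Cyp2a5, the genes with the lowest log2 fold changes, are negative against each of the other 6 genes.

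The nearest profile to each gene was sought among 15898 other named genes detected on all 8 arrays, by the root mean square difference over the 8 arrays after each gene's own mean was subtracted. For Cyp2a4 and Cyp2a5 the nearest was Cyp4a10, a fatty acid omega-hydroxylase, at 0.10 and 0.11 on the log2 scale, but they were nearer to each other, at 0.070, than to any of these. For Cyp2d9 it was Hsd17b4, an enzyme of peroxisomal beta-oxidation, at 0.050. For Cyp2d22 it was Psmd9 at 0.057, for Cyp2d26 Hbs1l at 0.031, for Cyp2a12 Harsl at 0.034 and for Cyp2f2 A730008H23Rik at 0.052. Among the members, Cyp2d9 was the nearest to Cyp2d10, Cyp2d22, Cyp2d26 and Cyp2f2, but between 13 and 482 other genes were nearer to each of these than Cyp2d9 was.

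Of the other genes in the same clusters, most were lower where detected. On chromosome 7, 6 of 9 listed genes had a detected probe, 5 of them below STD and 1 above, and the median change was -1.89 on the log2 scale. The calls at 5% were 2 decreases, or 4 with the block by array number. The 2 were Cyp2b13, at -2.94 (SE 0.63, adjusted p = 0.0322), and Cyp2b10, a target of the nuclear receptor CAR, at -2.41 (SE 0.50, adjusted p = 0.0299). Both varied between STD livers, with an SD of 1.23 and 1.13. The higher gene, Cyp2s1, gave 0.81 (adjusted p = 0.113), and 1.26 with no scaling (adjusted p = 0.0249). On chromosome 15 only Cyp2d13 of 5 listed genes was measured, and it fell by 0.64 (adjusted p = 0.0429).

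Electron donors of P450s and enzymes that act on heme were considered next. All 14 listed genes were detected, 2 passed and both fell, and the median was -0.56, or -0.12 with no scaling. Cyb5b, a cytochrome b5 of the outer mitochondrial membrane, gave -0.93 (adjusted p = 0.0190) and Cyb5r3, a cytochrome b5 reductase, gave -0.76 (adjusted p = 0.0254). Por, the reductase of microsomal P450s, gave -0.85 and did not pass (adjusted p = 0.0759), and Alas1, the rate-limiting enzyme of heme synthesis in liver, gave -0.86 (adjusted p = 0.355). Of 21 detected regulators of hepatic P450 genes, 0 passed by limma, and their median was -0.32, or 0.13 with no scaling. The largest change among them was that of Dbp, at -1.755 (adjusted p = 0.112). Cebpa gave -0.55 (adjusted p = 0.0510), or -0.099 with no scaling (adjusted p = 0.648). Hnf4a gave -0.13 (adjusted p = 0.577), or 0.32 with no scaling.

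Lists of sex-biased and zoned liver genes were read because the members belong to both kinds. Of 11 detected male-biased genes all were lower and 6 passed 5%, with a median of -0.74 (-0.29 with no scaling). Of 10 detected female-biased genes all were lower and 4 passed 5%, with a median of -1.43 (-0.99 with no scaling). With the block 4 and 5 genes passed. Among male-biased genes Susd4 gave -1.99 (adjusted p = 0.0102), Nudt7 gave -1.06 (adjusted p = 0.0347) and Cyp7b1, an oxysterol 7-alpha-hydroxylase, gave -1.05 (adjusted p = 0.0105). Among female-biased genes Cyp2b13 had the largest decrease, followed by Cyp3a16 at -1.82 (adjusted p = 0.00472) and Cyp3a44 at -1.64 (adjusted p = 0.00423). Cyp2a4, female-biased, and Cyp2d9, male-biased, were thus both lower, and Cyp2d9 did not pass.

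Of 12 periportal genes 9 were lower and 3 of these passed 5%, and the median of the list was -0.46. Of 13 pericentral genes all were lower and 5 passed 5%, with a median of -0.52. Gls2, a periportal glutaminase, gave -1.21 (adjusted p = 0.0178), Arg1, the arginase of the urea cycle, gave -0.77 (adjusted p = 0.0228) and Ass1, which precedes it in that cycle, gave -0.70 (adjusted p = 0.0449). Among pericentral genes Rhbg, an ammonium transporter, gave -1.38 (adjusted p = 0.0179), Oat, the ornithine aminotransferase, gave -1.19 (adjusted p = 0.00423) and Cyp27a1, a sterol 27-hydroxylase, gave -0.72 (adjusted p = 0.0284). With no scaling the medians of these lists were -0.011 and -0.068. With the block 1 periportal gene passed, and Arg1 (adjusted p = 0.0556) and Ass1 (adjusted p = 0.0682) did not, and 4 pericentral genes passed.

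**Figure D5:**
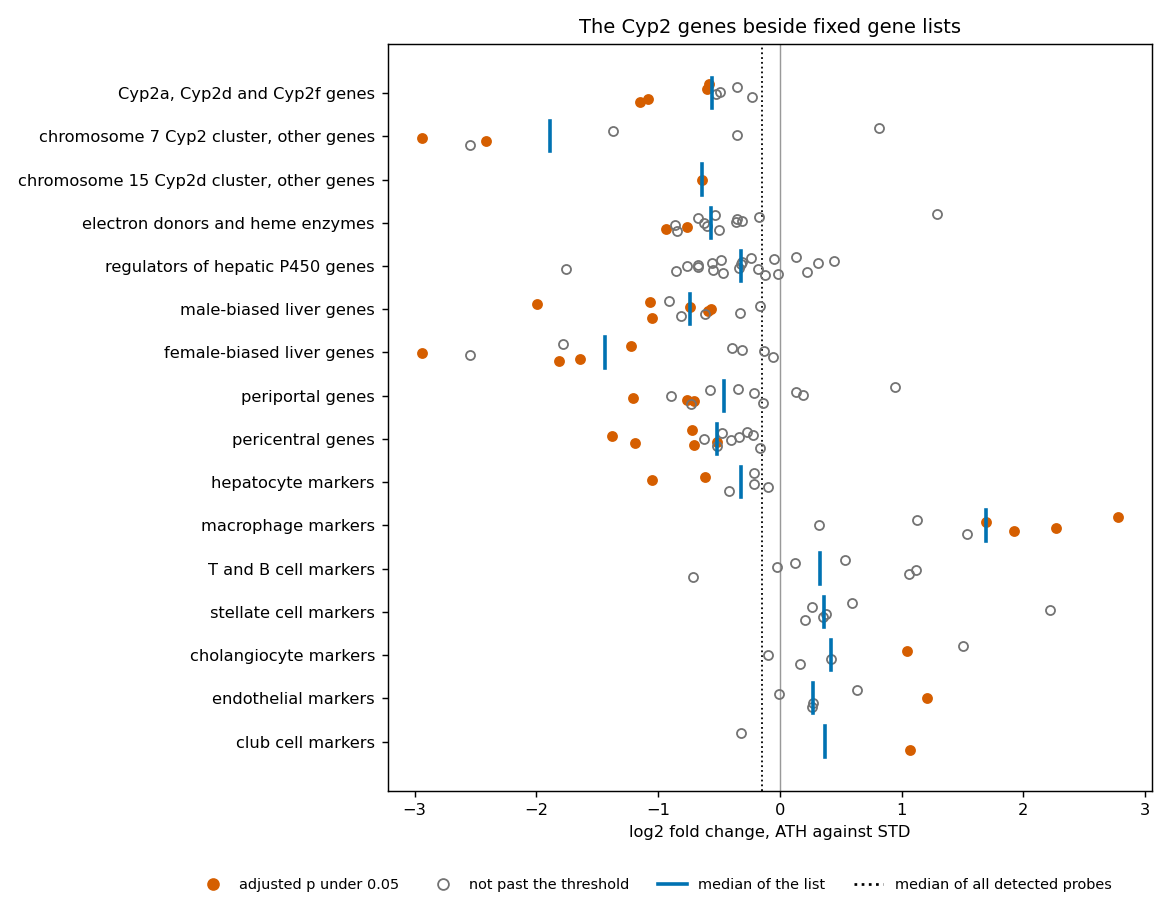
Log2 fold change (ATH against STD) of each detected gene at its brightest probe, by list, with filled points for genes past a false discovery rate of 5%, a blue bar for the median of the list and a dotted line for the median of all detected probes. The 8 Cyp2a, Cyp2d and Cyp2f genes have a median of -0.55, and macrophage markers lie above 0.

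Markers of other cell types moved with the diet. All 7 macrophage markers were higher and 4 passed 5%. The log2 of their summed scaled signal ranged from 6.40 to 6.55 in the STD group and from 7.31 to 9.13 in the ATH group. Lgals3 rose by 2.77 (adjusted p = 0.0134), Lyz2 by 2.27 (adjusted p = 0.0339) and Cd68 by 1.92 (adjusted p = 0.0460, or 0.0551 with the block). All 6 detected hepatocyte markers were lower and 2 passed 5%. Tat fell by 1.05 (adjusted p = 0.0104) and Hpd by 0.61 (adjusted p = 0.0493, or 0.0532 with the block). The median of these hepatocyte markers was -0.32, or 0.13 with no scaling. Their summed signal ranged from 11.004 to 11.04 in the STD group and from 10.38 to 10.85 in the ATH group. Albumin was at 10.33 ± 0.02 in the STD group and 9.91 ± 0.23 in the ATH group (mean ± SD, n = 4), so the samples carried the defining marker of liver.

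ATH 3 and ATH 4 had the lowest scaled signal of the ATH livers at the brightest probes of the Cyp2d genes, Cyp2a12 and Cyp2f2. Their summed macrophage signal was the highest, at 8.95 and 9.13, and their summed hepatocyte signal the lowest, at 10.49 and 10.38. In these livers the largest part of the macrophage sum was Lyz2, at 8.35 and 8.41. The largest part of the hepatocyte sum was albumin, at 9.82 and 9.63. On both arrays the subtracted 75th percentile was also the highest, at 9.42 and 9.46, beside 9.26 and 9.11 for ATH 1 and ATH 2. A higher percentile lowers every scaled value of its array. Before it was subtracted, ATH 2 was the lowest ATH liver at the brightest probes of Cyp2f2 and Cyp2d22. ATH 3 and ATH 4 were still the lowest for Cyp2d9, Cyp2d10, Cyp2d26 and Cyp2a12. The share of the percentile in this order was not tested further. ATH 3 and ATH 4 also had the highest summed signal of 5 cholangiocyte markers. It ranged from 3.45 to 4.00 in the STD group and reached 5.75 and 6.53 in these livers. Nearly all of that sum was Spp1, which macrophages also make, at 5.67 and 6.50, while Krt19 gave -1.40 and -2.12 and Epcam gave -2.81 and -3.27, against STD means of -2.08 and -3.01. Their part in the result was not tested. Without both of these livers, a choice made after seeing the data, the log2 fold change was -0.90 for Cyp2a5, -0.97 for Cyp2a4, -0.43 for Cyp2f2 and 0.053 for Cyp2a12, and 0 of the 14 probes passed 5%.

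Of the other cell types, 0 of 6 T and B cell markers and 0 of 6 stellate cell markers passed by limma, with medians of 0.33 and 0.37. With no scaling those medians were 0.78 and 0.81, where the median of all detected probes was 0.30. The stellate markers Lrat, Dcn, Col1a1, Acta2 and Pdgfrb then passed 5% as higher by limma, and Des did not (adjusted p = 0.0562). Of 5 cholangiocyte markers Sox9 rose by 1.04 (adjusted p = 0.0390), and of 5 endothelial markers Lyve1 rose by 1.21 (adjusted p = 0.0361). With no scaling the cholangiocyte markers Krt7, Sox9 and Spp1 passed 5% as higher, and Krt19 and Epcam did not. The endothelial markers Pecam1, Stab2, Lyve1 and Cdh5 also passed as higher with no scaling, and Kdr did not (adjusted p = 0.141). Club cells of the lung, the best known site of Cyp2f2, were checked by 2 markers, whose summed signal ranged from -2.80 to -2.25 in the STD group and from -2.53 to -2.26 in the ATH group. Of these Scgb1a1 rose by 1.07 (adjusted p = 0.0409) from a level at which 3 of 4 STD arrays were well above background, whereas Cyp2f2 fell. After normexp background correction the change of Scgb1a1 was 0.093 (adjusted p = 0.440), and with the block it did not pass (adjusted p = 0.0659).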

How the data were processed

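Liver RNA of 4 STD and 4 ATH mice was measured on 8 arrays, grouped by the sample titles. The authors deposited Agilent Feature Extraction output (version 9.5, per the labels) with background-subtracted spot intensity left unscaled, and GeneSpring log2 values in a second table. Apart from 1 constant per array and 1 per probe, those deposited log2 values matched the logged processed signal within 0.001, and served as an alternative.

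Outlier-flagged spots were dropped, repeat spots of a probe were averaged, and the 75th percentile of the array's non-control probes was subtracted on the log2 scale. A probe was detected when it was well above background, positive and significant, and unflagged on at least 3 of 4 arrays of either diet (31056 probes). Diets were compared with limma (version 3.58.1, R 4.3.3) by lmFit and eBayes, with two-sided p-values adjusted by Benjamini-Hochberg over all detected probes. A gene was read at its brightest detected probe. Exact permutation tests used scipy version 1.17.1 under Python version 3.11.15. The methods' test with unequal variances and the alternatives given in the closing section were run on the same arrays. Steps were tested on simulated data.

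Same-numbered STD and ATH arrays occupied the same place on their slides. Across probes, the correlation of their deviations from the means of their diets was 0.1001, 0.2296, 0.1815 and 0.1766 for numbers 1 to 4. Each array correlated best with the array of its own number in the other diet, except ATH 1. Position on the slide and any pairing of the mice cannot be told apart. A fit with the number as a block was run as an alternative.

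All probes of the 8 genes are named. From each list up to 3 genes were named that had the largest change among those past 5%, with the nearest profile to each member, except that of Cyp2d10, which is not reported here. Genes of a list named without passing, and Alb, were chosen after their values were seen. The members and lists were chosen with earlier results of these data known.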

Additional observations from a re-analysis of the deposited data

Results flagged for a closer look

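Each probe of the 8 genes was examined for a liver that stood apart from the other 3 of its diet, over 28 sets of 4 values, by the gap to the nearest liver relative to the range. Chance flags about 1 in 20 such sets, and 3 were found. At the brightest Cyp2d22 probe STD 1, at 5.49, lay above the other STD livers. At the second Cyp2d22 probe ATH 1, at 1.63, lay above the other ATH livers. At the Cyp2f2 probe STD 1, at 8.46, lay below the other STD livers, which lay between 8.54 and 8.56. The diets did not overlap at the brightest Cyp2d22 probe or at the Cyp2f2 probe.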

How the results depend on the processing

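The number of the 14 probes called lower at 5% was 7. It was 3 with no scaling, 2 with spike-in scaling and 0 by the methods' test with unequal variances, and it ranged from 0 to 8 when each array was left out. It was 0 without ATH 3 and ATH 4 together, an alternative chosen after seeing the data. The number called at 1% was 0, and 3 after normexp background correction, which called 10 at 5%, where 16.7% of all detected probes were called lower against 4.94%. Of the 8 genes at their brightest probe 4 were called lower at 5%. This was 2 with no scaling, 1 with spike-in scaling, 2 with median scaling, 2 with quantile normalization, 2 with no detection filter, 0 by the methods' test, 0 without ATH 3 and ATH 4, and from 0 to 4 when each array was left out. Cyp2a12 turned positive with no scaling (0.22), spike-in scaling (0.080), quantile normalization (0.080) and without ATH 3 and ATH 4 (0.053), and Cyp2d26 with no scaling (0.098) and quantile normalization (0.082). The other 6 genes were lower under all 20 alternatives run for each. With the replicate number as a block, 6 of the 14 probes and 3 of the 8 genes passed 5%. Cyp2f2 lost its call there (adjusted p = 0.0615), and no other call of a member probe at 5% was lost. The pairs of genes gave 0 calls under each alternative, but with the replicate block a sign-flip test on 4 pairs cannot go below p = 0.125 (exact). With 1 array left out, the share of all detected probes called lower ranged from 0.792% without STD 3 to 7.12% without ATH 2. The causes of these changes were not tested.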
